A study of Rattus norvegicus with 12 samples.

Results

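Genes around the FOXO transcription factors were followed in cultures of rat cerebellar granule neurons: the factors Foxo1, Foxo3 and Foxo4, the thioredoxin-interacting protein gene Txnip, and the FOXO targets Sesn1, Sesn3, Cited2, Bcl6 and Ccng2. The members were the 16 probe sets of the array whose only gene symbol is one of these 9 genes, out of 14217 genes with a symbol. A filter on dim probe sets, described below, kept 11 of the 16, with at least 1 for each gene. The 12 arrays fall into 4 groups of 3, lettered A, B and C: GW5074 at 6 h, low potassium at 6 h, GW5074 at 3 h and low potassium at 3 h. All 12 are total RNA of such cultures, with no transgene or mutation named.

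FOXO proteins are forkhead-box transcription factors that are held in the cytoplasm when the kinase AKT, acting below insulin and growth factor receptors, phosphorylates them. When that survival signal is withdrawn they enter the nucleus and turn on genes of cell cycle exit, stress resistance, metabolism and, in neurons, cell death. Txnip encodes an arrestin-domain protein that binds thioredoxin and lowers glucose uptake, and its gene is known to respond to glucose-sensing factors and to FOXO. Granule neurons are a common model of this switch, since they survive in raised potassium and die after it is lowered. GW5074 is a small-molecule kinase inhibitor made against RAF. Arrays read messenger RNA, so the phosphorylation and the location of FOXO proteins were not measured.

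The labels name no untreated or raised-potassium group, and leave unsaid whether potassium was low in the GW5074 cultures too. Changes between 3 h and 6 h and the effect of time spent in culture therefore cannot be told apart. The labels also do not say whether the letters are separate cultures, so the p-values measure a spread between arrays that may be technical. The title of array A of GW5074 at 6 h ends in a suffix unlike the others, of unstated meaning, and the array was kept. Of 12 granule neuron markers, 11 were on the array and all 11 passed the filter, among them Neurod1 and Gabra6. Within a time, the GW5074 and low-potassium arrays of the same letter deviated together from their group means, by correlations of 0.21 to 0.65 over probe sets, so the 6 same-letter pairs were also fitted as pairs (the paired fit). Both 6 h arrays of letter B changed less from the 3 h mean than the mean of letters A and C for each of the 6 genes with a called change in time, as given below.

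The promoters of the 3 targets that rose together with time are shown first, as the 250 bases before the annotated start of the gene in RefSeq (assembly GRCr8), 5′ to 3′ on the gene's strand. Ccng2, the gene of a G-type cyclin that goes with cell cycle arrest, lies on the minus strand with the window at chr14:15097191-15097440. Cited2, the gene of a co-regulator that binds the acetyltransferases Crebbp and Ep300, lies on the plus strand at chr1:14132053-14132302. Sesn1, the gene of a sestrin, a stress protein that restrains mTOR signalling, lies on the plus strand at chr20:46948469-46948718. Capitals mark AAACA or, where it lies on the other strand, TGTTT, the end of the forkhead core word GTAAACA, and the E-box CACGTG.
Ccng2: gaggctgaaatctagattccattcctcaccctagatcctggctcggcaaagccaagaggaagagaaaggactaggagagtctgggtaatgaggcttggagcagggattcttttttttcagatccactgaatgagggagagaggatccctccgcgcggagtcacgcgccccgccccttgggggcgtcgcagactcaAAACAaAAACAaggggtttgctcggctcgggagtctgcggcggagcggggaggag
Cited2: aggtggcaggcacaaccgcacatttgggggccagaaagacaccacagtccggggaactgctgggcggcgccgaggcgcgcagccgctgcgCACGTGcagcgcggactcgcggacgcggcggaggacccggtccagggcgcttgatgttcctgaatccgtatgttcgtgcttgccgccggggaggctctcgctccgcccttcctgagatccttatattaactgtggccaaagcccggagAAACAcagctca
Sesn1: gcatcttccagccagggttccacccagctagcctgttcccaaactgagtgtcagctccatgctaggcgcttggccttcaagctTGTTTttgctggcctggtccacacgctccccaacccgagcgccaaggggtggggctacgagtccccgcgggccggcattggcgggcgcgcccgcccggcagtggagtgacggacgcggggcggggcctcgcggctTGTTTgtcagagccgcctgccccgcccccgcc

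Both strands of this window were searched in the 7 of 9 members that had a promoter sequence. Foxo3 and Txnip had none and were not searched. The full word GTAAACA, whose last 5 letters are AAACA, was in 0 of the 7 and in 3.21% of all 33469 promoters of the same length. AAACA was in Ccng2 at 55 and 49 bases before the start, in Cited2 at 12 and in Sesn1 at 167 and 32, and it is common, being in 47.0% of all promoters. This short word was searched after the values of the genes were known. CACGTG was in Cited2 at 160 bases and in Bcl6 at 197 bases before the start, against 5.59% of all promoters. Foxo1, Foxo4 and Sesn3 held none of the 3 words. A match describes letters, not a bound site.

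Values below are deposited intensities on a linear scale, with each array scaled to a common mean. Log2 changes are of quantile-normalised intensities with 16 added, which shrinks changes of dim probe sets. A call is a limma adjusted p under 0.05 over the 18625 probe sets kept, those with a mean at or above the 40th percentile (a normalised intensity of 28.0). Where a gene has several probe sets, the brightest stands for it. The number of arrays limits the precision.

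With time, 4 members rose in both treatments: Foxo3, Ccng2, Cited2 and Sesn1. Bcl6 fell in both. Foxo4 rose with GW5074 and was not called in low potassium, while Foxo1, Sesn3 and Txnip were called in neither. With GW5074, 7 of the 11 member probe sets were called higher at 6 h, where 13.1% of all probe sets were, and 1 was called lower, where 11.9% were. In low potassium 6 were called higher, against 11.6% of all, and 1 lower, against 11.0%. The median change of the 9 genes was 0.79 with GW5074 and 0.42 in low potassium, beside medians of -0.017 and -0.044 over all genes. The array is of bulk RNA, in which fewer cells of a type and less RNA per cell cannot be told apart.

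**Figure D1:**
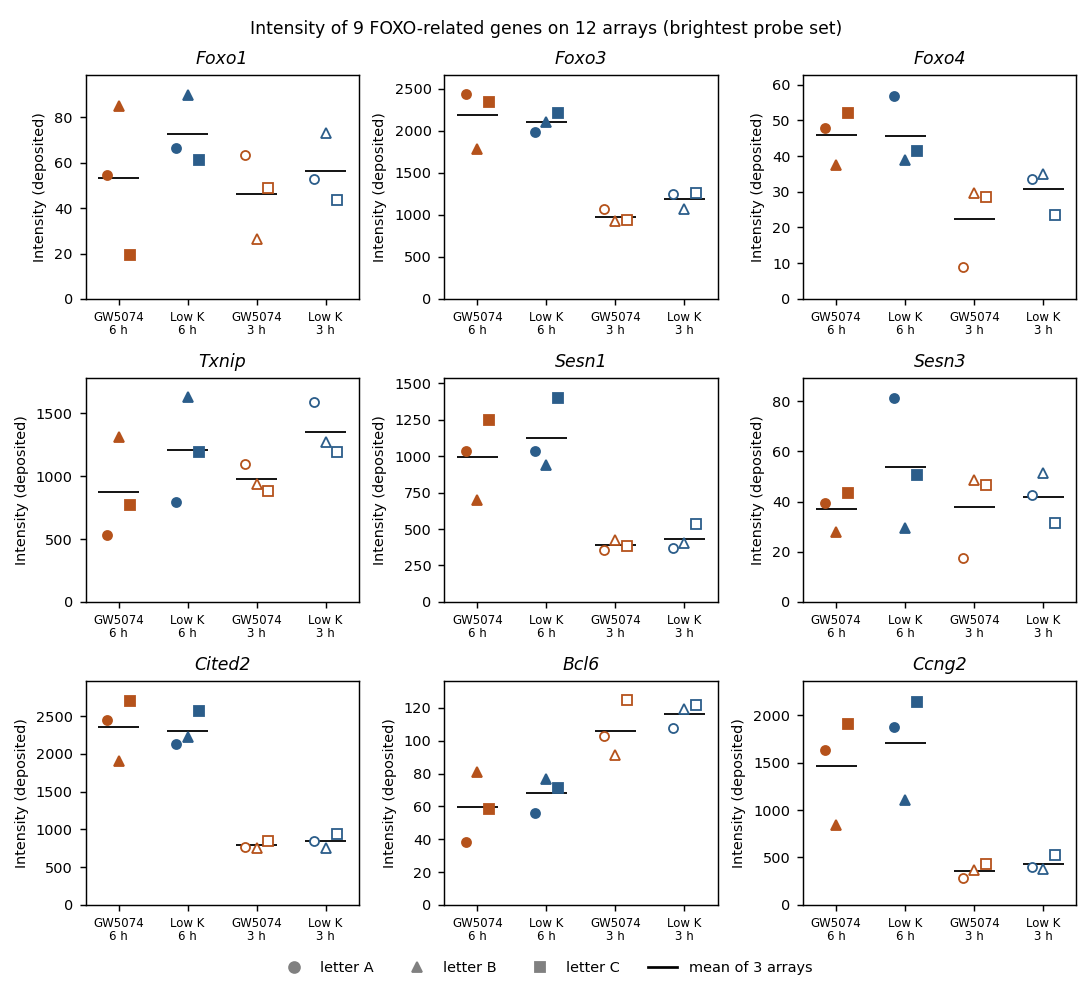
Deposited intensity (linear axis from 0) of the brightest probe set of each gene on the 12 arrays; columns are GW5074 at 6 h, low potassium at 6 h, GW5074 at 3 h and low potassium at 3 h, symbols are the letters, and lines are means of 3 arrays. Foxo3, Sesn1, Cited2 and Ccng2 lie higher on all 6 h arrays than on any 3 h array, Bcl6 lies lower, and Txnip lies lower with GW5074 than in low potassium in each same-letter pair.

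Among the factors, Foxo3, a main FOXO of neurons, rose in both treatments. Its intensity on arrays A, B and C was 2442, 1787 and 2348 with GW5074 at 6 h, and 1983, 2106 and 2210.4 in low potassium at 6 h. At 3 h it was 1066, 929 and 938 with GW5074, and 1252, 1068 and 1256 in low potassium. Every 6 h array was above every 3 h array in both treatments. The rise was 2.34-fold with GW5074 (log2 1.23 ± 0.13 SE, adjusted p = 8.97e-05) and 1.85-fold in low potassium (0.89 ± 0.13, adjusted p = 6.76e-04). The 2 other Foxo3 probe sets were removed by the filter, with no array above 26.3, and were not tested.

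Foxo4, the member of the family on the X chromosome, was dim throughout. It read 47.8, 37.6 and 52.0 with GW5074 at 6 h and 56.9, 38.9 and 41.4 in low potassium at 6 h. It read 9.07, 29.6 and 28.4 with GW5074 at 3 h and 33.7, 35.1 and 23.5 in low potassium at 3 h. The 6 h arrays did not overlap the 3 h arrays in either treatment, and array A of GW5074 at 3 h was far below the others. The log2 rise was 0.79 ± 0.24 with GW5074 (adjusted p = 0.0251) and 0.42 ± 0.24 in low potassium (adjusted p = 0.219), and the difference between these changes was 0.38 (paired adjusted p = 0.668). The call with GW5074 was lost without array A of GW5074 at 3 h (log2 0.55, adjusted p = 0.107), or without array A (0.76, adjusted p = 0.0837) or C (0.72, adjusted p = 0.0884) of GW5074 at 6 h.

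Foxo1, the FOXO best known from insulin signalling, read 54.8, 85.2 and 19.3 with GW5074 at 6 h and 66.5, 89.7 and 61.3 in low potassium at 6 h. At 3 h it read 63.4, 26.4 and 48.7 with GW5074 and 52.8, 73.1 and 43.7 in low potassium. The groups overlapped, and arrays of 1 group differed by as much as the groups did. The log2 change with time was 0.10 with GW5074 (95% interval -0.60 to 0.81, adjusted p = 0.852) and 0.27 in low potassium (-0.43 to 0.98, adjusted p = 0.582). Its other probe sets, 2 in number, were removed by the filter, with no array above 18.2.

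Of the targets, Ccng2 had the largest fold change with time among the 9 genes, in both treatments. Its intensity was 1639, 842 and 1908 with GW5074 at 6 h and 1872, 1104 and 2139.9 in low potassium at 6 h, against 281, 373 and 430.4 with GW5074 at 3 h and 401, 378 and 528 in low potassium at 3 h. The lowest 6 h array, letter B in each treatment, still lay above the highest 3 h array. Ccng2 rose 3.86-fold with GW5074 (log2 1.95 ± 0.29 SE, adjusted p = 6.78e-04) and 3.80-fold in low potassium (1.93 ± 0.29, adjusted p = 9.60e-04).

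Cited2 was measured by a pair of probe sets that moved alike. The brighter read 2452, 1908 and 2708 with GW5074 at 6 h and 2133, 2222 and 2571 in low potassium at 6 h, against 769, 754 and 843 with GW5074 at 3 h and 845, 749.9 and 936 in low potassium at 3 h. The groups of the 2 times were far apart. The rise was 3.09-fold with GW5074 (log2 1.63 ± 0.14, adjusted p = 3.97e-05) and 2.85-fold in low potassium (1.51 ± 0.14, adjusted p = 9.20e-05). The second probe set gave log2 rises of 1.29 with GW5074 and 1.23 in low potassium, both called.

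Sesn1 also had 2 probe sets. The brighter read 1035, 701 and 1249.9 with GW5074 at 6 h and 1035, 937 and 1401 in low potassium at 6 h, against 357, 424 and 387 with GW5074 at 3 h and 369.7, 403 and 532 in low potassium at 3 h. No 6 h array fell into the range of the 3 h arrays. It rose 2.44-fold with GW5074 (log2 1.29 ± 0.20, adjusted p = 8.45e-04) and 2.55-fold in low potassium (1.35 ± 0.20, adjusted p = 9.00e-04). The second probe set had smaller rises, of 0.81 with GW5074 (adjusted p = 0.0264) and 1.11 in low potassium (adjusted p = 0.00635).

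Sesn3, a sestrin known as a FOXO target, was not called with time, unlike its relative Sesn1. It read 39.3, 27.8 and 43.5 with GW5074 at 6 h and 81.2, 29.5 and 50.7 in low potassium at 6 h, against 17.7, 48.5 and 46.7 with GW5074 at 3 h and 42.4, 51.4 and 31.4 in low potassium at 3 h. All 4 groups overlapped. Its log2 change was 0.08 with GW5074 (95% interval -0.54 to 0.70, adjusted p = 0.868) and 0.23 in low potassium (-0.39 to 0.85, adjusted p = 0.5997). Its other probe set was removed by the filter, with no array above 16.1.

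Bcl6, the gene of a transcriptional repressor, was the only member called lower with time. It read 38.4, 81.1 and 58.7 with GW5074 at 6 h and 56.2, 76.8 and 71.4 in low potassium at 6 h, against 103, 91.1 and 125 with GW5074 at 3 h and 108, 119 and 122 in low potassium at 3 h. The times did not overlap in either treatment, and letter B was the highest 6 h array in both. Bcl6 fell by 0.73 ± 0.20 on the log2 scale with GW5074 (adjusted p = 0.0165) and by 0.71 ± 0.20 in low potassium (adjusted p = 0.0200). The call with GW5074 was lost without array A at 6 h (adjusted p = 0.0869) or C at 3 h (0.0526). That in low potassium was lost without array A at 6 h (adjusted p = 0.0844), or without B (0.0684) or C (0.0547) at 3 h.

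Txnip split by letter at 6 h. It read 530.2, 1312 and 772 with GW5074 at 6 h and 792, 1630.0 and 1193 in low potassium at 6 h, against 1101, 939.7 and 886 with GW5074 at 3 h and 1589, 1276 and 1196 in low potassium at 3 h. In both treatments the 6 h array of letter B was above all 3 h arrays of that treatment and those of letters A and C were below them. The log2 change with time was -0.25 with GW5074 (95% interval -0.85 to 0.36, adjusted p = 0.561) and -0.16 in low potassium (-0.76 to 0.45, adjusted p = 0.726). Without both 6 h arrays of letter B the change with GW5074 was -0.60 and was called (adjusted p = 0.0266), and that in low potassium was -0.40 and was not (adjusted p = 0.128).

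**Figure D2:**
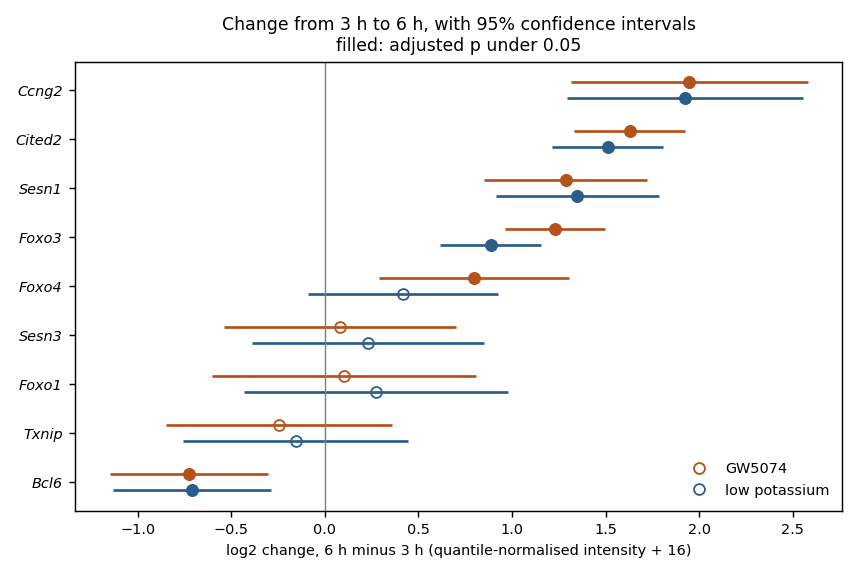
Log2 change, 6 h minus 3 h, of each gene with GW5074 (upper bar of a gene) and in low potassium (lower bar), with 95% confidence intervals from limma; filled points have an adjusted p under 0.05. Ccng2 (1.95 and 1.93), Cited2, Sesn1 and Foxo3 lie right of 0 in both treatments, Bcl6 (-0.73 and -0.71) lies left, and the intervals of Sesn3, Foxo1 and Txnip span 0.

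Letter B at 6 h moved less than the mean of letters A and C for the members that rose. With GW5074, Ccng2 was 1.20 above the 3 h mean on array B at 6 h and 2.32 above it on the mean of A and C, on the log2 scale. In low potassium these were 1.34 and 2.22. For Foxo3 they were 0.91 and 1.39 with GW5074 and 0.88 and 0.89 in low potassium. Cited2 had 1.31 and 1.79 with GW5074 and 1.45 and 1.54 in low potassium. Sesn1 had 0.83 and 1.51 with GW5074 and 1.10 and 1.47 in low potassium. Array A of low potassium at 6 h read lower than B for Foxo3 (1983 and 2106) and for Cited2 (2133 and 2222). Foxo1 and Sesn3 moved in opposite directions on array B and on the mean of A and C with GW5074 (0.74 and -0.21 for Foxo1, -0.20 and 0.22 for Sesn3). Without both B arrays the calls of Foxo3, Ccng2, Cited2, Sesn1, Foxo4 and Bcl6 stood.

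Across the 12 arrays, log2 values of Foxo3, Cited2, Sesn1 and Ccng2 correlated with each other by Pearson's r of 0.948 to 0.985, values that include the step between times. After removal of the group means the same 6 pairs of genes gave 0.614 to 0.876, and Txnip gave -0.791 with Ccng2 and 0.796 with Bcl6. The highest such r among the members was 0.917, between the dim genes Foxo4 and Sesn3, both lowest on array A of GW5074 at 3 h. Foxo1 gave -0.771 with Sesn1 and -0.748 with Ccng2. These values are descriptions over arrays that share scaling and the split of letter B.

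The comparison of GW5074 with low potassium asks which genes differ between the 2 treatments. Since the labels leave the potassium of the GW5074 cultures unsaid, the inhibitor and a difference in potassium cannot be told apart. Txnip was lower with GW5074 in 6 of 6 pairs and was the only gene among the 9 called on its representing probe set, in the paired fit at 6 h and over both times together. The fit without pairs called no member. In that fit limma called 0 of 18625 probe sets (0%) at 6 h, at 3 h, averaged over both times and for the 6 h effect minus the 3 h effect (0% each). Probe sets with an unadjusted p under 0.05 numbered 895 at 6 h, 299 at 3 h, 468 for the average and 644 for the difference. In the paired fit 2 member probe sets were called lower at 6 h, where 0.923% of all probe sets were. In that fit 1 was called lower for the average, against 0.177% of all, and 0 at 3 h, against 0.0107%. For the difference between the effects the paired fit called 0.177% of all probe sets in either direction and 0 members.

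Within the pairs of letters A, B and C, Txnip differed on the log2 scale by -0.60, -0.29 and -0.65 at 6 h. The 3 h pairs, in the same order, gave -0.50, -0.41 and -0.35. At 6 h the letters spread widely and the groups overlapped, and at 3 h all 3 GW5074 arrays lay below all 3 low-potassium arrays. At 6 h Txnip averaged 871 ± 401 with GW5074 and 1205 ± 419 in low potassium, and at 3 h 976 ± 112 with GW5074 and 1354 ± 208 in low potassium (SD, n = 3 each). At 6 h it was 1.43-fold lower (log2 -0.51 ± 0.08 SE, paired adjusted p = 0.00495; without pairs ± 0.28, adjusted p = 0.983). At 3 h it was 1.34-fold lower (-0.42 ± 0.08, paired adjusted p = 0.185; without pairs 1). Averaged over both times the difference was -0.47 ± 0.06 (paired adjusted p = 0.00106; without pairs 1). The effects at the 2 times differed by -0.09 (95% interval -0.33 to 0.15, paired adjusted p = 0.796).

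The paired calls of Txnip held whichever of the 6 pairs was left out, with adjusted p of 0.00183 to 0.0446 at 6 h and 2.58e-04 to 0.0161 for the average. They were lost without the mean-variance trend of limma (adjusted p = 0.184 and 0.320) and with the pair as a random block (0.164 and 0.200). Beside Txnip, the summed intensity of 3 collagen genes, Col1a1, Col1a2 and Col3a1, was lower on the GW5074 array of all 6 pairs. At 6 h the sum was 116 to 248 with GW5074 and 144 to 262 in low potassium. At 3 h it was 103 to 154 with GW5074 and 162 to 213 in low potassium. Only these 3 of the 8 listed endothelial and fibroblast markers passed the filter, so the sum holds no endothelial gene. Of the 8, 7 were on the array, with Col1a2 the brightest and Lum, not in the sum, the dimmest at a mean of 5.53. The gap in log2 signal between the 3-prime and 5-prime actin controls, which reflects RNA quality, was wider on the GW5074 array of every pair, by a mean of 0.112 ± 0.112 (SD, n = 6). The same gap of the GAPDH controls was wider in 4 of 6 pairs, by a mean of 0.027 ± 0.047. Their part in the result was not tested.

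**Figure D3:**
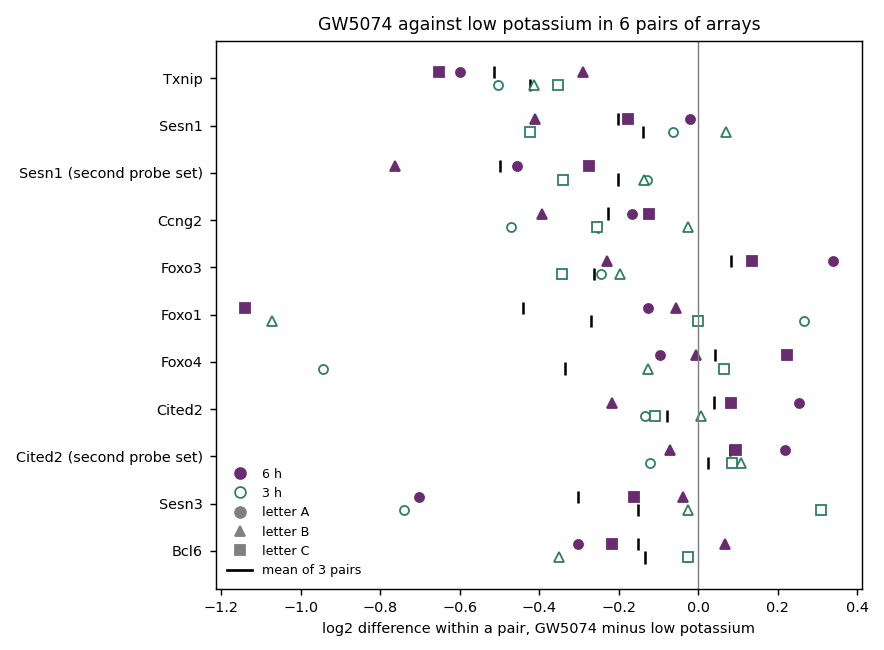
Log2 difference, GW5074 minus low potassium, within each same-letter pair of arrays for the 11 member probe sets; filled symbols are 6 h pairs, open symbols 3 h pairs, shapes are the letters and bars are means of 3 pairs. All 6 Txnip pairs and all 6 Ccng2 pairs lie left of 0, and the Foxo3 pairs lie on both sides at 6 h.

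The second probe set of Sesn1 was the other call. It read 277, 167 and 356 with GW5074 at 6 h and 368, 291 and 433 in low potassium at 6 h, and the groups overlapped although each pair was lower. The difference at 6 h was -0.50 ± 0.12 (paired adjusted p = 0.0429; without pairs 0.983). The brighter Sesn1 probe set had -0.20 ± 0.10 (paired adjusted p = 0.343), so the call was not shared by both. That call was lost whichever of the 6 pairs was left out (adjusted p 0.05004 to 0.227), with the pair as a random block (0.156) and without the mean-variance trend (0.209).

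Ccng2 was lower with GW5074 in 6 of 6 pairs, by small amounts (-0.02 to -0.47). Averaged over both times its difference was -0.24 ± 0.06 (95% interval -0.38 to -0.10), which missed the threshold (paired adjusted p = 0.176). Cited2 had 0.04 at 6 h (95% interval -0.13 to 0.21) and -0.08 at 3 h (-0.25 to 0.09) in the paired fit. Bcl6 had -0.15 and -0.13, Sesn3 -0.30 and -0.15, Foxo1 -0.44 and -0.27, and Foxo4 0.04 and -0.33, at 6 h and 3 h in that order, none past the threshold. Single pairs stood far out, such as -1.14 for Foxo1 in pair C at 6 h and -0.94 for Foxo4 in pair A at 3 h.

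Foxo3 had differences of opposite sign at the 2 times. At 3 h it averaged 977 ± 77.0 with GW5074 and 1192 ± 107 in low potassium (log2 -0.26 ± 0.09, paired adjusted p = 0.658). All 3 pairs were lower. The groups only just missed overlapping, at 1066 on the highest GW5074 array and 1068 on the lowest low-potassium array. At 6 h Foxo3 averaged 2192 ± 354 with GW5074 and 2099.8 ± 114 in low potassium, with 2 of 3 pairs higher (0.08 ± 0.09, paired adjusted p = 0.696). The effect at 6 h minus that at 3 h was 0.34 ± 0.12 and missed the threshold (paired adjusted p = 0.231). Without pair B at 6 h it was 0.50 and passed (adjusted p = 0.0459).

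In all, the log2 difference of the representing probe set was negative for 9 of 9 genes at 3 h and averaged over both times. At 6 h it was negative for 6 of 9. The share of all genes below 0 was not counted, and genes correlated over the same arrays do not give independent signs. Cited2 was near 0, at -0.078 at 3 h and -0.020 for the average, and its second probe set had 0.024 and 0.052. The median over the 9 was -0.20 at 6 h, -0.25 at 3 h and -0.17 for the average, beside 0.015, -0.0094 and 0.0033 over all genes. The average is made from the same arrays as the comparisons at each time.

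Genes that carry the signal from growth factor receptors to FOXO were followed as well. Of 18 listed receptors, adaptors and kinases 13 were tested, of which 3 rose and 3 fell with GW5074, against 13.1% and 11.9% of all probe sets, and 2 rose and 1 fell in low potassium, against 11.6% and 11.0% (medians 0.21 and 0.12). The low-potassium counts are near those shares. Igf1r, the receptor of insulin-like growth factor, rose by 1.57 with GW5074 and 1.60 in low potassium. Pik3ca, the catalytic subunit of the PI3-kinase, rose by 0.82 and 0.70. Akt1, a kinase that phosphorylates FOXO, fell by 0.46 with GW5074 (just under the threshold) and by 0.76 in low potassium.

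Pik3r1, the regulatory subunit of the PI3-kinase, was the 1 of the 13 called between GW5074 and low potassium in the paired fit. That fit called 0.923% of all probe sets lower at 6 h, and 0.177% in either direction for the difference between the effects. Without the mean-variance trend it called 1 of 18625 probe sets at 6 h, and whether the call of Pik3r1 held there was not examined. It averaged 77.4 ± 41.4 with GW5074 at 6 h and 168 ± 68.2 in low potassium at 6 h, against 257 ± 40.7 with GW5074 at 3 h and 236 ± 34.1 in low potassium at 3 h (SD, n = 3 each). It was 1.95-fold lower with GW5074 at 6 h (log2 -0.96, paired adjusted p = 0.00166; without pairs 0.919). The effect at 6 h differed from that at 3 h by -1.07 (paired adjusted p = 0.0420). With time it fell by 1.64 with GW5074 (adjusted p = 0.00164) and had -0.57 in low potassium (adjusted p = 0.171).

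Of 16 listed proteins that modify or bind FOXO, 11 were tested. In each treatment 4 rose and 3 fell with time (medians 0.045 with GW5074 and 0.041 in low potassium). Of all probe sets 13.1% rose and 11.9% fell with GW5074, and 11.6% rose and 11.0% fell in low potassium. In the paired fit 0 of the 11 were called between GW5074 and low potassium. Of all 18625 probe sets that fit called 348 at 6 h, 3 at 3 h and 44 for the average. A count of 0 is near those shares, so it is no result about these genes. Ctnnb1, or beta-catenin, which binds FOXO, rose by 0.44 with GW5074 and 0.48 in low potassium. Stk3, a kinase of the Hippo pathway, had 0.45 and 0.52, its relative Stk4 had -0.08 and -0.33, and the ubiquitin ligase Mdm2 had -0.05 and 0.04, none past the threshold. Chosen after their values were seen, the acetyltransferase genes Ep300 (1.20 with GW5074 and 0.90 in low potassium) and Crebbp (1.01 and 0.60) rose, and the deacetylase Sirt2 (-0.62 and -0.73) fell.

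Of 46 other FOXO targets listed, 34 were tested. With GW5074 5 rose and 8 fell, where 13.1% of all probe sets rose and 11.9% fell. In low potassium 5 rose and 7 fell, where 11.6% of all rose and 11.0% fell (medians -0.14 and -0.12). The counts of rises are near the shares over all probe sets, so they are no result about these targets. Pik3ip1, an inhibitor of the PI3-kinase, rose by 1.38 with GW5074 and 1.46 in low potassium. It averaged 319 ± 72.2 with GW5074 and 401 ± 91.0 in low potassium at 6 h. Sod2, the mitochondrial superoxide dismutase, fell by 0.56 with GW5074 and had -0.33 in low potassium, not past the threshold. Bbc3, the gene of the pro-apoptotic protein Puma, had -0.14 and 0.17, not past the threshold.

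Ccnd1, a cyclin that drives entry into the cell cycle and that FOXO represses, was called lower with GW5074 at 6 h in the paired fit (log2 -0.55, adjusted p = 0.0187). It was the 1 of the 34 tested targets called there, where 0.923% of all probe sets were called lower. It averaged 264 ± 233 with GW5074 and 356 ± 239 in low potassium at 6 h (SD, n = 3 each), so the letters differed more than the treatments. Chosen after their values were seen, Klf2, a transcription factor gene, fell by 3.37 with GW5074 and 2.83 in low potassium. The translation repressor Eif4ebp1 (-2.45 and -2.30), the cell cycle inhibitor Cdkn1a (-1.50 and -1.37) and the third sestrin, Sesn2 (-0.76 and -0.85), also fell. The Myc antagonist Mxi1 (1.28 and 1.38), the catalase gene Cat (0.88 and 1.23) and the autophagy kinase Ulk1 (0.90 and 0.89) rose.

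Of 14 listed thioredoxin and arrestin-domain genes around Txnip, 11 were tested. In each treatment 0 rose and 4 fell with time (medians -0.46 with GW5074 and -0.41 in low potassium). Of all probe sets 13.1% rose and 11.9% fell with GW5074, and 11.6% rose and 11.0% fell in low potassium. The paired fit called 0 of the 11 between GW5074 and low potassium. Over all 18625 probe sets it called 348 at 6 h, 3 at 3 h and 44 for the average, so 0 is near those shares. Arrdc3, an arrestin-domain relative of Txnip, fell by 1.53 with GW5074 and 1.45 in low potassium. Arrdc4, another relative, fell by 0.67 with GW5074 (adjusted p = 0.0461) and had -0.65 in low potassium (0.0544). Ddit4, a stress-induced restrainer of mTOR, fell by 0.62 and 0.60. The thioredoxin reductase gene Txnrd1 had -0.46 with GW5074 and fell by 0.66 in low potassium. Mlx, the partner of the glucose-sensing factors that act on Txnip, was chosen after its values were seen and fell by 0.76 and 0.41.

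**Figure D4:**
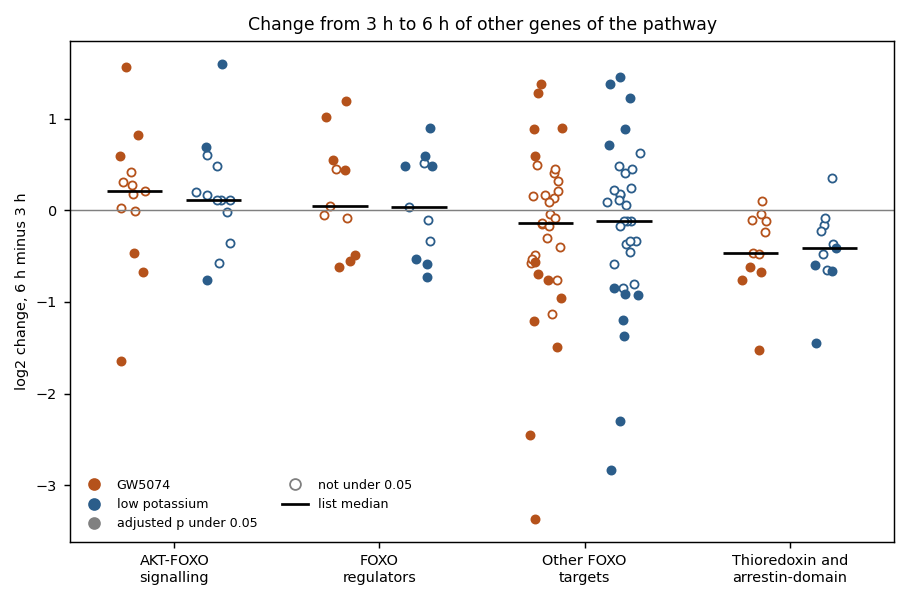
Log2 change, 6 h minus 3 h, of the tested genes of 4 lists with GW5074 (left of each pair) and in low potassium (right); filled points have a limma adjusted p under 0.05 and lines are list medians. The 3 lists of signalling genes, regulators and other targets spread to both sides of 0, and none of the called thioredoxin and arrestin-domain genes lies above 0.

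Some markers of cell types moved with time as well. The summed intensity of granule neuron markers was 12537 to 15925 with GW5074 and 12913 to 14963 in low potassium at 6 h, against 7119 to 8728 with GW5074 and 7458 to 9898 in low potassium at 3 h. Of its 11 tested markers 10 rose with GW5074, against 13.1% of all probe sets, and in low potassium 6 rose, against 11.6%, and 1 (Tubb3) fell, against 11.0%. Of 7 tested astrocyte markers 1 rose in each treatment, against 13.1% of all probe sets with GW5074 and 11.6% in low potassium. It was Gfap, by 1.92 with GW5074 and 1.87 in low potassium, and the list medians were -0.013 and 0.065. Of 6 tested Purkinje and GABAergic neuron markers 1 fell in each treatment, against 11.9% and 11.0% of all. It was Pvalb, by 1.52 and 1.17, and the list medians were 0.0014 and 0.19. Gfap and Pvalb are named because they were the called ones. The counts of these 2 lists are near the shares over all probe sets, so they are no result about these cell types. The tested markers of the oligodendrocyte lineage (6), microglia and macrophages (5) and endothelial cells and fibroblasts (3, all collagen genes) had 0 calls with time. The part of these markers in the changes of Foxo3, Ccng2, Cited2 and Sesn1 was not tested. Between GW5074 and low potassium the only marker called was Slc17a7, of the granule neuron list. It was higher with GW5074 at 6 h in the paired fit (limma adjusted p = 0.00429), where 176 of 18625 probe sets were called higher. Slc17a7 averaged 2357 with GW5074 and 1776 in low potassium at 6 h.

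The genes whose log2 values over the 12 arrays were most like those of Txnip, of 10252 other genes, were Abi3bp, Col5a2 and Tmem69, with Pearson's r of 0.895, 0.890 and 0.832. After removal of the group means r was 0.936, 0.953 and 0.853, at ranks 13, 6 and 137 of the 10252 genes, so other genes were then more like Txnip. With GW5074 against low potassium, averaged over both times, these 3 had -0.16, -0.14 and -0.09 on the log2 scale, none past the threshold in the paired fit. These are descriptions over arrays that share the split of letter B at 6 h.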

How the data were processed

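Total RNA of 12 samples was measured on Affymetrix rat arrays, 3 in each of 4 groups taken from the sample titles. The deposited values are 1 linear intensity for each of 31099 probe sets, of which 57 are controls. From the values, the authors had scaled each array to a mean of 150, leaving out 2% at each end. The sources used here do not give the summarisation software. Symbols came from the platform annotation (20826 probe sets with 1 symbol, 436 with several), and 20758 matched a rat gene table of assembly GRCr8 that was used for names only.

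The intensities of the 31042 others were quantile-normalised and turned into log2 after 16 was added. The filter left 18625 probe sets for 10261 genes. Two-sided tests were made in limma 3.58.1 (R 4.3.3), with lmFit and a trended eBayes, 4 group means, 8 residual degrees of freedom and Benjamini-Hochberg adjustment at 0.05. The paired fit has a replicate block within time and 4 residual degrees of freedom. Pairing comes from the letters in the titles: same-letter correlations were 0.293, 0.65 and 0.572 for letters A, B and C at 6 h and 0.425, 0.21 and 0.542 at 3 h, against at most 0.0603 for other letters. Across times they were -0.0668 to 0.182, so time was tested without pairs. The paired fit took its place in the text after the fit without pairs had called nothing.

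The members and the gene and marker lists were chosen with earlier results of these data known. Of each list, the 4 genes with the smallest unadjusted p in the paired fit over both times were named, and others only where said. The script was tested on simulated data. Python 3.11.15 and matplotlib 3.10.9 were used for tables and figures.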

Additional observations from a re-analysis of the deposited data

How the results depend on the processing

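The fits without pairs were repeated with 1 or 64 added in place of 16, without quantile normalisation, without the filter or at the 60th percentile, without the mean-variance trend, with a random block (consensus correlation 0.496), without each array and without both 6 h arrays of letter B; the paired fits were repeated likewise, without each pair. The alternatives under the replicate block other than leaving out pairs or letter B were added after seeing the data. The count of member probe sets called for GW5074 was 0 without pairs, and with the replicate block 2 at 6 h and 1 averaged over both times. In the paired fit the count at 6 h was 1 without each pair, with 1 added or without the filter, and 0 without the trend. The count with time in GW5074 was 8, and 5 to 8 without 1 array, the lowest without array A at 6 h. Signs turned for these uncalled log2 differences when 1 array was left out (lowest and highest values). At 6 h these were Foxo3 (-0.022 to 0.24), Foxo4 (-0.044 to 0.15), Sesn1 (-0.38 to 0.026), Cited2 (-0.064 to 0.20), Bcl6 (-0.33 to 0.049) and Ccng2 (-0.52 to 0.15). At 3 h they were Sesn3 (-0.32 to 0.12) and Cited2 (-0.15 to 4.57e-04, and 0.024 by its second probe set). For the average it was Cited2 (-0.071 to 0.061, 0.045 without letter B at 6 h and 0.052 by its second probe set), and for the difference between the effects Txnip (-0.45 to 0.22). For time with GW5074 they were Foxo1 (-0.21 to 0.51, and -0.21 without letter B at 6 h), Txnip (-0.60 to 0.064) and Sesn3 (-0.19 to 0.25), and in low potassium Txnip (-0.40 to 0.11) and Sesn3 (-0.016 to 0.50). The cause was not tested. The replicate block changed no call of a member other than Txnip and Sesn1. It gives no value for changes with time, since pairs lie within a time. The calls with time of Foxo3, Ccng2, Cited2 and Sesn1 stood under every alternative run without pairs. Of the recomputed values other than the main counts, 1042 kept their direction and their side of the threshold, 27 turned sign, 20 lost a call, 5 gained one and 13 counts moved. Signal near the filter limits Foxo1, Foxo4 and Sesn3.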
